A study of Mus musculus with 9 samples.

Results

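The nuclear genes that encode the mitochondrial respiratory chain and ATP synthase were examined in chromatin accessibility maps of mouse melanoma cells. They were taken as the protein-coding genes of the RefSeq table for GRCm38.p6 whose symbols start with Ndufa, Ndufb, Ndufc, Ndufs, Ndufv, Sdha, Sdhb, Sdhc, Sdhd, Uqcr, Cox4 to Cox8 or Atp5. This gave 100 of 21887 coding genes on chromosomes 1 to 19, X and Y. By prefix, 49 belong to complex I, 8 to complex II, 8 to complex III, 18 to complex IV and 17 to complex V, and 12 of the 100 (the Ndufaf and Sdhaf genes) are assembly factors rather than subunits.

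Open chromatin was mapped by ATAC-seq (tagging of accessible DNA by a transposase) in B16 mouse melanoma cells sorted from tumours that were harvested on day 15 after injection into mice. There were 3 groups of 3 libraries. The first was B16 with no treatment, the second was B16 given interferon gamma (IFNy in the labels) as a chronic treatment before injection, for 2 weeks in replicates 1 and 2 and for 3 weeks in replicate 3, and the third was Res499, a B16-derived line resistant to checkpoint blockade (499 in the labels), with no treatment. The labels do not say whether the libraries of a group came from separate mice, and the p-values below cover only how these libraries vary. The third treated library differs from the other treated libraries both in weeks of treatment and in fragment class (below), and these cannot be told apart.

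The respiratory chain moves electrons from NADH and succinate to oxygen and pumps protons across the inner mitochondrial membrane, and ATP synthase uses the returning protons to make ATP. Complex I takes electrons from NADH, complex II from succinate, complex III passes them to cytochrome c, complex IV gives them to oxygen, and complex V is ATP synthase. Most subunits are encoded in the nucleus, and their promoters are known for sites of the factors NRF1, GABP (an ETS factor), ERR and YY1. Promoters of such widely used genes are open in most cell types.

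The deposited data are lists of peaks, with no read counts. The lists held 9221 to 25374 peaks, and a longer list calls more genes, so each was also reduced to its 9214 most significant peaks, the length of the shortest list on these chromosomes. A gene was called where a peak lay within 1 kb of either annotated end, and its best peak was given a rank percentile, in which 100 is the most significant peak of the list. These percentiles order sites within a library and carry no absolute amount of open chromatin. Shortest peaks of 162 to 185 bp marked a long fragment class (untreated replicates 1 and 3, IFNy replicate 3, Res499 replicate 3), and 95 to 125 bp a short class. The classes were read from peak widths and not from the labels, and may be a technical batch. The main tests held no term for them, and an alternative fit did. Relative depth recovered from the peaks ran from 7.59 to 11.1 fragments per kb. Of 7 melanocyte markers, Mitf and Pmel had a peak in all 9 equal-length lists, Dct in 2 libraries of each group, Tyr in 1 of each group and Tyrp1 in 3 untreated, 2 IFNy and 0 Res499 libraries, while Sox10 and Mlana had none. The part of this Tyrp1 pattern in the results below was not tested. None of 8 leukocyte markers had a peak in any deposited list, and of 4 markers of fibroblasts and endothelium only Col1a1 was called, in 0, 2 and 1 equal-length lists and 3, 3 and 1 full lists of the untreated, IFNy and Res499 groups.

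Promoter sequences came from RefSeq (GRCm38.p6) and matched 82 of the 100 genes. The 6 stretches below are the 150 bases that end just before the start of genes named in the results whose start lay under a peak in all 9 libraries. They were taken for the number of motif kinds they hold, and motif matches on either strand are in capitals. Each is written 5′ to 3′ in the direction of transcription.
Sdhb (chr4:140961121-140961270, plus strand): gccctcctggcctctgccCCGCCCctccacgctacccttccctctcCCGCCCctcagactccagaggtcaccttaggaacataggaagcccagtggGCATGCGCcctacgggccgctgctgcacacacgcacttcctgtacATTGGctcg
Ndufa8 (chr2:36049339-36049488, minus strand): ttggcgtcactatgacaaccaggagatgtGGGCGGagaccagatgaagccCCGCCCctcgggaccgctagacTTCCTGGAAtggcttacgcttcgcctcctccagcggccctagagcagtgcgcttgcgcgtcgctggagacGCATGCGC
Ndufa6 (chr15:82354292-82354441, minus strand): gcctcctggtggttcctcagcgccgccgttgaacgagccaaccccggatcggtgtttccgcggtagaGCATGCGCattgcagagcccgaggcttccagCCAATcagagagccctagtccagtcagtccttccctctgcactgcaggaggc
Ndufb4 (chr16:37654369-37654518, minus strand): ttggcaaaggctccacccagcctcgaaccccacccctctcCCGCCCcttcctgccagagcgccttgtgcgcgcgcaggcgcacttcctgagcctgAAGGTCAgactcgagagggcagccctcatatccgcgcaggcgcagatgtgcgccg
Sdhaf1 (chr7:30322376-30322525, minus strand): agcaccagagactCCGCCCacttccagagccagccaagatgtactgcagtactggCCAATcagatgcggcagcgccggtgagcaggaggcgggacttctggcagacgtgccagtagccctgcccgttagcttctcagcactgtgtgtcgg
Ndufaf2 (chr13:108158626-108158775, minus strand): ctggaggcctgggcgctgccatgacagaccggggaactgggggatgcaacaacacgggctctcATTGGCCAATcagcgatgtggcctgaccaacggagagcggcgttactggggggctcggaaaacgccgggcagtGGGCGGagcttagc
The capitals in Sdhb, which encodes the iron-sulfur subunit of complex II, mark an NRF1 match, GGGCGG boxes of the SP1 family on the opposite strand and a CCAAT box (NF-Y). Ndufa8, a supernumerary subunit of complex I, holds an NRF1 match directly before its start, SP1 matches and a match to the spaced letters of a STAT site, and Ndufa6 an NRF1 match and a CCAAT box. Ndufb4 holds an ERR match, and the assembly factors Sdhaf1 and Ndufaf2 hold SP1 and CCAAT matches. A match describes letters and shows no binding.

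Over the 300-base window from 250 bases before to 50 bases after the start, exact matches were counted for the 82 genes and for all 17492 coding genes in the promoter table. The NRF1 letters GCGCATGC were found in 14.6% of respiratory chain genes and 3.94% of all. The YY1 letters AANATGGC were found in 24.4% against 7.46%, and the ERR letters AAGGTCA in 9.76% against 4.73%. The ETS letters CCGGAAGT were found in 6.10% against 5.69%, GGGCGG in 47.6% against 49.2% and CCAAT in 42.7% against 42.3%. The remaining shares were 4.88% against 2.54% for TGACGTCA (CREB and ATF), 7.32% against 8.91% for CACGTG (E-box) and 6.10% against 8.92% for TTCNNNGAA (STAT). No test was made of these shares, and none of the motifs contains another.

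The NRF1 letters occurred in 12 genes: Ndufa6, Ndufa8, Ndufa11, Ndufaf4 and Ndufaf5 of complex I, Sdhb of complex II, Uqcrc1 and Uqcr11 of complex III, Cox6a1 of complex IV and Atp5g2, Atp5k and Atp5l of complex V. In 4 of them a match reached into the bases after the start. The YY1 letters occurred in 20 genes, and in 12 of those (60.0%) a match reached past the start, against 46.7% of the 1305 coding genes with a match. Ndufs7, Ndufs8, Atp5b and Atp5j were among the 20. Where the start was under a peak in all 9 libraries, NRF1 letters were in 20.0% of 30 respiratory chain genes and 9.02% of 2871 coding genes, YY1 letters in 16.7% against 11.3%, and ERR letters in 3 of the 30 against 3.20%. The ETS letters stood at 3.33% against 10.9%, the E-box at 3.33% against 11.2%, GGGCGG at 63.3% against 81.5% and CCAAT at 40.0% against 52.4%. The CREB and STAT letters stood at 3.33% against 4.77% and 6.67% against 7.56%.

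**Figure D1:**
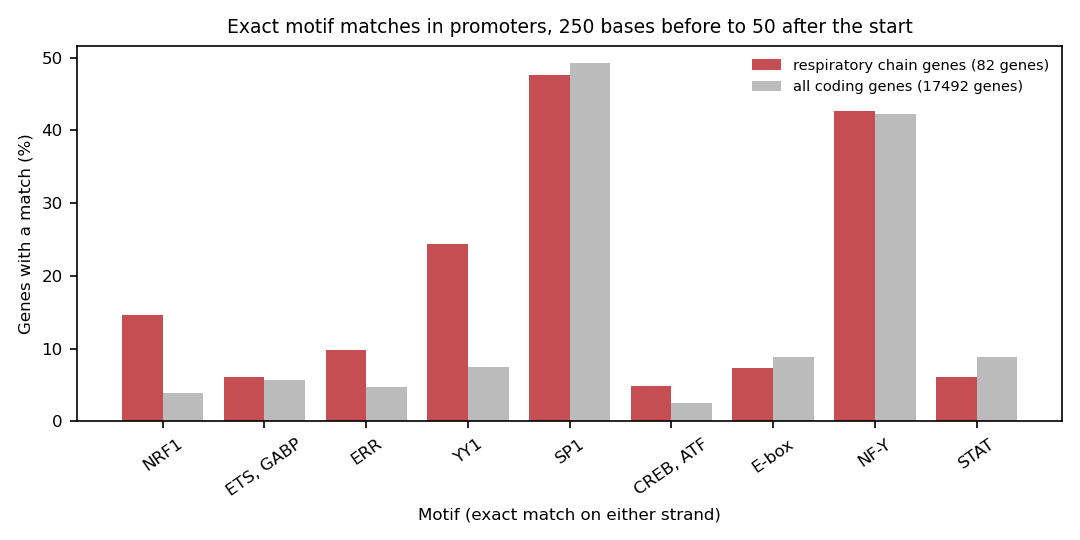
Share of genes (%) whose promoter window holds an exact match to each motif, for 82 respiratory chain genes (red) and 17492 coding genes (grey). The bars for NRF1 (14.6% against 3.94%) and YY1 (24.4% against 7.46%) stand farthest apart, and those for NF-Y are nearly level.

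Most respiratory chain genes were marked by a peak at an end, and this differed by complex. In the equal-length lists, 37 of the 100 genes had a peak in all 9 libraries, 45 in some and 18 in none, while over all coding genes these shares were 20.1%, 24.1% and 55.8%. All 8 complex II genes and all 17 complex V genes were called at least once. Complex IV stood lowest, with 3 genes called in all 9 libraries, 5 in some and 10 in none by this rule. Complex I had 18, 24 and 7 genes in these classes, and complex III 4, 3 and 1. In all deposited peaks, 48 of the 100 genes were called in every library and 11 in none, against 26.4% and 49.4% of coding genes.

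Other large housekeeping families lay at similar levels. Peaks in all 9 libraries were found at 25 of 78 mitochondrial ribosomal protein genes (32.1%), 31 of 101 cytosolic ribosomal protein genes (30.7%) and 12 of 40 proteasome genes (30.0%). The respiratory chain share of 37.0% was not tested against these. Of the 100 genes, 55 had the end of another coding gene within 1 kb of one of their own, against 24.8% of all coding genes, so a peak there may mark either gene. Examples are Atp5j beside Gabpa, which encodes the DNA-binding subunit of GABP, Ndufb5 beside Mrpl47, Ndufs6 beside Mrpl36 and Sdhd beside Timm8b. Among genes without such a neighbour, 31.1% of the 45 respiratory chain genes and 15.6% of coding genes were called in all 9 libraries.

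The number of genes called per library was 75, 61 and 55 in untreated B16, 66, 64 and 62 after IFNy, and 73, 60 and 69 in Res499. The group means were 63.7 ± 10.3, 64.0 ± 2.00 and 67.3 ± 6.66 genes (SD, n = 3). The values of the groups overlapped, and untreated replicate 1, of the long class, was the highest of all. Of the 45 genes called in part of the libraries, 14 were called in replicate 1 alone among the untreated libraries. Within the long class the counts were 75 and 55 untreated, 62 IFNy and 69 Res499, and within the short class 61 untreated, 66 and 64 IFNy and 73 and 60 Res499. The share of all coding genes called was between 32.4% and 34.7% in each library.

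By complex, complex I genes were called in 68.0%, 64.6% and 68.0% of gene and library pairs in untreated, IFNy and Res499 cells. Complex II reached 83.3%, 95.8% and 95.8%, complex III 75.0%, 83.3% and 83.3%, and complex V 74.5%, 72.6% and 72.6%. Complex IV reached 27.8%, 31.5% and 40.7%, from 8, 4 and 3 untreated, 5, 6 and 6 IFNy and 7, 8 and 7 Res499 genes per library. The 3 Res499 libraries thus had more complex IV genes than the 3 IFNy libraries, while the untreated libraries spanned both. This rule misses Cox5a and Cox7a2, whose RefSeq starts lie away from the annotated ends. A peak covered the start of Cox5a in 3 untreated, 1 IFNy and 1 Res499 equal-length list, and that of Cox7a2 in 3 of each group. In the full lists, which differ in length, the counts were 9, 9 and 9 untreated, 8, 8 and 6 IFNy and 9, 8 and 8 Res499 genes, so that Res499 met both other groups and the untreated libraries lay above the IFNy libraries. In the equal-length lists the counts of complexes I, II, III and V overlapped or met between groups. In the full lists the untreated libraries lay above all others for complex V (16 in each, against 14 to 15 and 11 to 15) and above Res499 for complexes I and III.

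**Figure D2:**
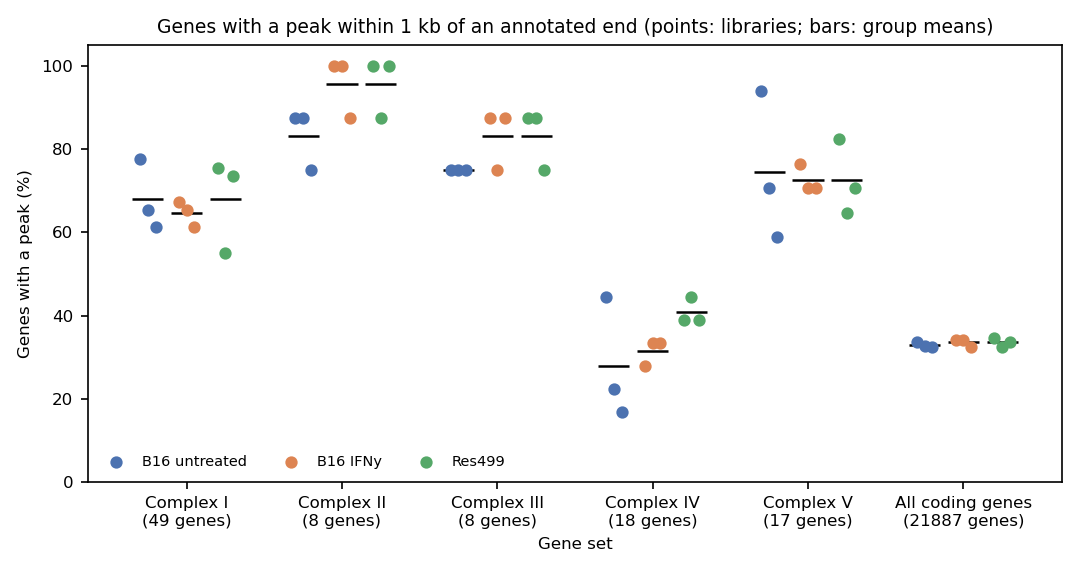
Share of genes (%) with a peak within 1 kb of an annotated end in the equal-length lists, by complex and group, with all coding genes at the right. Points are libraries and bars are group means (n = 3). Complex II lies between 75.0% and 100%, complex IV between 16.7% and 44.4%, and for complex IV the Res499 points lie above the IFNy points and within the untreated range.

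The peaks sat at the starts of the genes. For the 76 genes with both a RefSeq start and a peak in some deposited list, the median distance from the nearest start to the summit was -33.0 bp (upstream), and 70 of them (92.1%) had a median summit within 250 bp of the start. The summit was upstream in 54 and downstream in 22. Best peaks were 103 to 1657 bp wide (median 494 bp), with a fold enrichment, as the authors' peak caller gave it, of 3.55 to 18.3 (median 7.05). Ndufb6 was an exception, since the median summit of its best peaks lay 9582 bp from its RefSeq start, at the end it shares with Topors and Smim27. A peak also covered that start in 2 untreated, 3 IFNy and 2 Res499 equal-length lists, with a mean percentile of 32.0. The ranks given for Ndufb6 below are those of the best peak at either end. At Ndufa11, beside Vmac, the median summit lay at -534 bp, and a peak covered the start itself in 3 untreated, 1 IFNy and 0 Res499 libraries. The peak within 1 kb of an end of Atp5d, found in 1 library, lay at -3005 bp from the start, beside Midn, and a separate peak covered that start in 7 full lists.

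**Figure D3:**
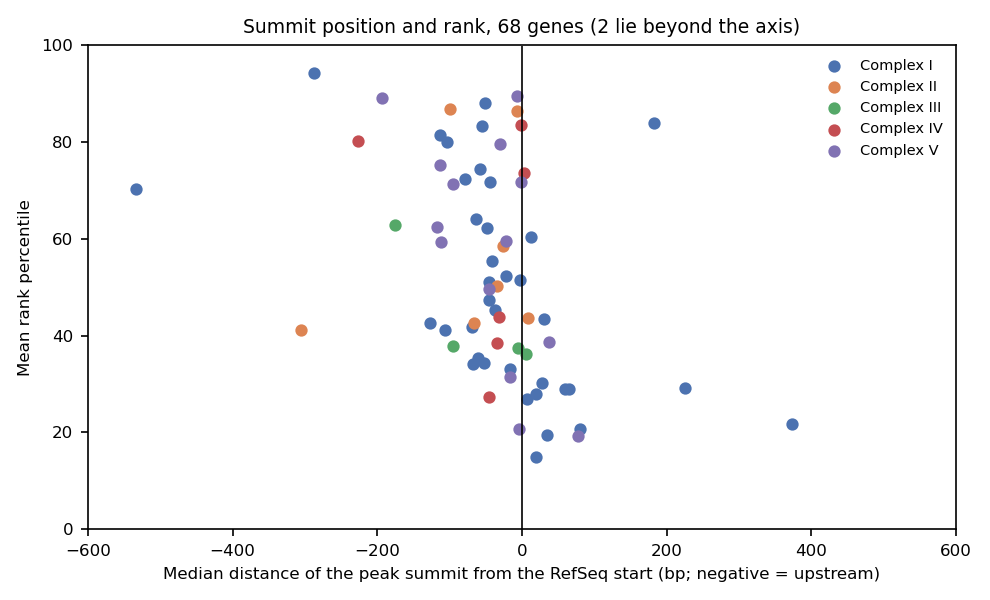
Median distance (bp) of the best peak's summit from the RefSeq start against the mean rank percentile, for 68 genes called in the equal-length lists and coloured by complex. Atp5d and Ndufb6 lie beyond the axis. Most points lie within 250 bp of the start, at all rank levels.

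Genes with complex I symbols, for the NADH dehydrogenase, spread over the whole range of ranks. Ndufa4, first described in complex I and since assigned to complex IV, had the best mean percentile of all 100 genes (94.4). Its percentiles were 94.6, 93.9 and 95.5 in untreated B16, 94.2, 93.1 and 96.3 after IFNy and 95.8, 97.9 and 88.4 in Res499. It was therefore near the top of every list. Ndufa6 (mean 88.1) stood between 87.6 and 96.9 in 8 libraries and at 51.7 in Res499 replicate 2. The other genes called in all 9 libraries were Ndufb2, Ndufa5, Ndufb5, Ndufaf8, Ndufaf4, Ndufv2, Ndufv3, Ndufa11, Ndufb1, Ndufb4, Ndufaf5, Ndufaf2, Ndufa8, Ndufab1 (the mitochondrial acyl carrier protein), Ndufb6 and Ndufs8, with mean percentiles from 83.9 to 41.2.

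The core subunits of complex I differed among themselves. Ndufv2 was called in all libraries, at 89.8, 77.4 and 75.0 untreated, 59.9, 86.3 and 74.1 after IFNy and 47.2, 94.8 and 46.4 in Res499, and the range within Res499 covered all the other values. Ndufs8 was at 6.5, 46.5 and 29.0 untreated, 48.1, 54.7 and 48.1 after IFNy and 55.4, 45.4 and 37.5 in Res499. Ndufv1, the flavin-binding subunit, was called in 3 untreated, 3 IFNy and 2 Res499 libraries, and Ndufs1, an iron-sulfur subunit of the same arm, in 2, 3 and 3. Ndufs7 was called in 1, 3 and 2 libraries and Ndufs3 in 2, 1 and 3.

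The remaining complex I genes called in part of the libraries are given in the order untreated, IFNy, Res499. Ndufb3 and Ndufaf7 were called in 3, 3 and 2 libraries, and Ndufa12 and Ndufa13 in 3, 2 and 3. Over the RefSeq start of Ndufa13, which has ends of Tssk6 and Yjefn3 within 1 kb, a peak lay in only 0, 0 and 1 of these lists. Ndufa10 and Ndufaf3 were called in 2, 2 and 3, and Ndufc1 and Ndufa2 in 2, 2 and 2. Ndufb7 and Ndufs6 were called in 3, 1 and 2, Ndufb11 in 3, 2 and 1, Ndufb9 in 2, 2 and 1, Ndufs5 in 1, 3 and 1 and Ndufb8 in 1, 2 and 2. Ndufaf6 was called in 1, 0 and 2 libraries, Ndufa9 in 0, 1 and 1, and Ndufa3, Ndufs4 and Ndufb10 in 1, 0 and 1. Ndufa7, called once in each group, had one of the 5 lowest mean percentiles (14.9). These are mostly supernumerary subunits, and none separated the groups.

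Complex II, succinate dehydrogenase, has 4 subunits and 4 assembly factors here. Sdhaf3, an assembly factor, ranked among the best 5 genes, at 86.7, 91.1 and 91.4 untreated, 92.2, 84.4 and 83.2 after IFNy and 90.3, 84.7 and 78.6 in Res499. Sdhb was at 96.2, 97.2 and 97.6 untreated, 78.5, 84.6 and 74.4 after IFNy and 97.9, 59.5 and 91.5 in Res499. All 3 IFNy libraries lay below the untreated libraries, while Res499 spanned both. Sdhd, a membrane anchor, was at 86.8, 30.6 and 73.9 untreated, 42.0, 17.1 and 40.6 after IFNy and 45.3, 19.7 and 28.1 in Res499, with 1 untreated library inside the range of the others. Sdha, the flavoprotein that oxidises succinate, was at 21.2 to 59.0, 35.2 to 80.4 and 39.1 to 73.1, and Sdhaf1 at 63.5 to 75.4, 38.0 to 82.4 and 15.6 to 71.4. Sdhaf4 was called in 2, 3 and 3 libraries and Sdhaf2, which adds flavin to Sdha, in 3, 3 and 2.

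Sdhc, the other membrane anchor (chromosome 1, 171129157 to 171150640), was, in the equal-length lists, the one gene with a peak at its ends in every library of a group and in none of another. It was called in 0 untreated, 2 IFNy and 3 Res499 libraries. Its percentiles were 88.8 and 4.9 in IFNy replicates 1 and 2 and 52.2, 28.8 and 33.3 in Res499. All 3 untreated libraries did hold the peak in their full lists, at ranks 9526, 11002 and 10480, just past the limit of 9214. With Res499 replicate 2 left out and lists of 11181 peaks, the gene was called in all untreated libraries and the count of such genes was 0.

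Complex III, cytochrome c reductase, had 4 genes called in all 9 libraries. Uqcrq was at 74.4, 48.2 and 58.4 untreated, 61.3, 84.8 and 80.0 after IFNy and 76.9, 62.9 and 69.5 in Res499. Uqcrb, a small subunit, spread widely within each group, from 8.2 to 83.6 untreated, 56.5 to 87.5 after IFNy and 25.8 to 88.2 in Res499. Uqcrc2, a core protein, ranged from 48.3 to 79.7, 13.9 to 84.1 and 22.0 to 63.6, and Uqcrh, the hinge protein, from 9.4 to 68.2, 26.5 to 75.0 and 20.7 to 31.9. Uqcrc1, the other core protein, was called in 2 untreated, 3 IFNy and 3 Res499 libraries, Uqcr10 in 2, 2 and 3 and Uqcrfs1, the Rieske iron-sulfur protein, in 2, 3 and 2. Uqcr11 was absent from the equal-length lists and present in 3 untreated and 2 IFNy full lists.

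Complex IV, cytochrome c oxidase, was called at 8 of 18 genes. Cox7c, Cox7a2l (a factor of supercomplex assembly) and Cox5b were called in all 9 libraries, with mean percentiles of 83.6, 80.3 and 73.6. Cox5b was at 54.0, 59.1 and 61.3 untreated, 83.3, 73.0 and 77.6 after IFNy and 98.3, 63.5 and 92.5 in Res499, so that each untreated library lay below all 6 others. This order over all 9 libraries entails the same order within each fragment class, so the classes add no separate check. Cox8a was called in 2, 3 and 3 libraries of the untreated, IFNy and Res499 groups, Cox4i1 in 1, 2 and 3, Cox6b1 and Cox6a1 in 1, 1 and 3 and Cox6c in 1, 1 and 1. Cox4i1 and Cox6c were among the 5 lowest mean percentiles, at 15.6 and 13.0.

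Several complex IV subunits, and Ndufa4, have a second form made in muscle, testis or lung or under other special conditions. None of the 8 tissue forms Cox4i2, Cox6a2, Cox6b2, Cox7a1, Cox7b2, Cox8b, Cox8c and Ndufa4l2 had a peak in any equal-length list. In the full lists Cox7a1 was called in 2 untreated, 1 IFNy and 1 Res499 library and Ndufa4l2 in 1 untreated library, and 6 of the 8 were called in none. Of the 7 common partners, Ndufa4 was called in all 9 libraries, Cox4i1, Cox6a1, Cox6b1 and Cox8a in some, and Cox7a2 and Cox7b in none. With the 7 tissue forms of complex IV left out, the other 11 genes of that complex were called in all libraries, some and none in 3, 5 and 3 cases.

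Complex V, ATP synthase, had 7 genes called in all libraries and 10 in some. Atp5j, the coupling factor subunit beside Gabpa, was at 93.5, 96.0 and 96.1 untreated, 84.7, 91.4 and 79.4 after IFNy and 77.4, 95.0 and 91.6 in Res499. Atp5g1, one of 3 genes for the membrane ring, was at 93.2, 83.5 and 92.2, then 95.3, 85.0 and 97.3, then 93.6, 85.8 and 75.5. Both were among the best 5 genes. Atp5g2, another ring gene, was at 72.2, 74.6 and 88.4 untreated, 68.0, 86.4 and 79.7 after IFNy and 58.4, 57.6 and 56.8 in Res499, where all 3 values lay below the other 6. Atp5c1, the rotating central stalk subunit, ranged from 43.6 to 80.8, 50.9 to 87.2 and 75.6 to 90.1. Atp5pb, Atp5mpl and Atp5h, also called in all libraries, had mean percentiles of 75.2, 59.3 and 59.3.

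The genes of the alpha and beta subunits and 8 further genes were called in part of the libraries. Atp5b, the catalytic beta subunit, was called in 3 untreated, 2 IFNy and 2 Res499 libraries, and Atp5a1, the alpha subunit, in 1 of each group. In the same order, Atp5e was called in 3, 3 and 2 libraries, Atp5md in 3, 2 and 3, Atp5o in 2, 3 and 3 and Atp5j2 in 2, 2 and 3. Atp5g3, the third ring gene, was called in 1 library of each group, Atp5l in 1, 2 and 0, Atp5k in 1, 0 and 0 and Atp5d in 0, 0 and 1. Atp5j2 and Atp5d were among the 5 lowest mean percentiles by this rule (19.3 and 3.8). The value for Atp5d rests on 1 peak away from its start, beside Midn. Over its own RefSeq start it was called in 2 untreated, 1 IFNy and 1 Res499 equal-length list, with a mean percentile of 28.6, and in 3, 3 and 1 full lists. Atpif1, the inhibitor of the synthase, which the symbols do not bring into the set, was called in 1, 0 and 0.

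**Figure D4:**
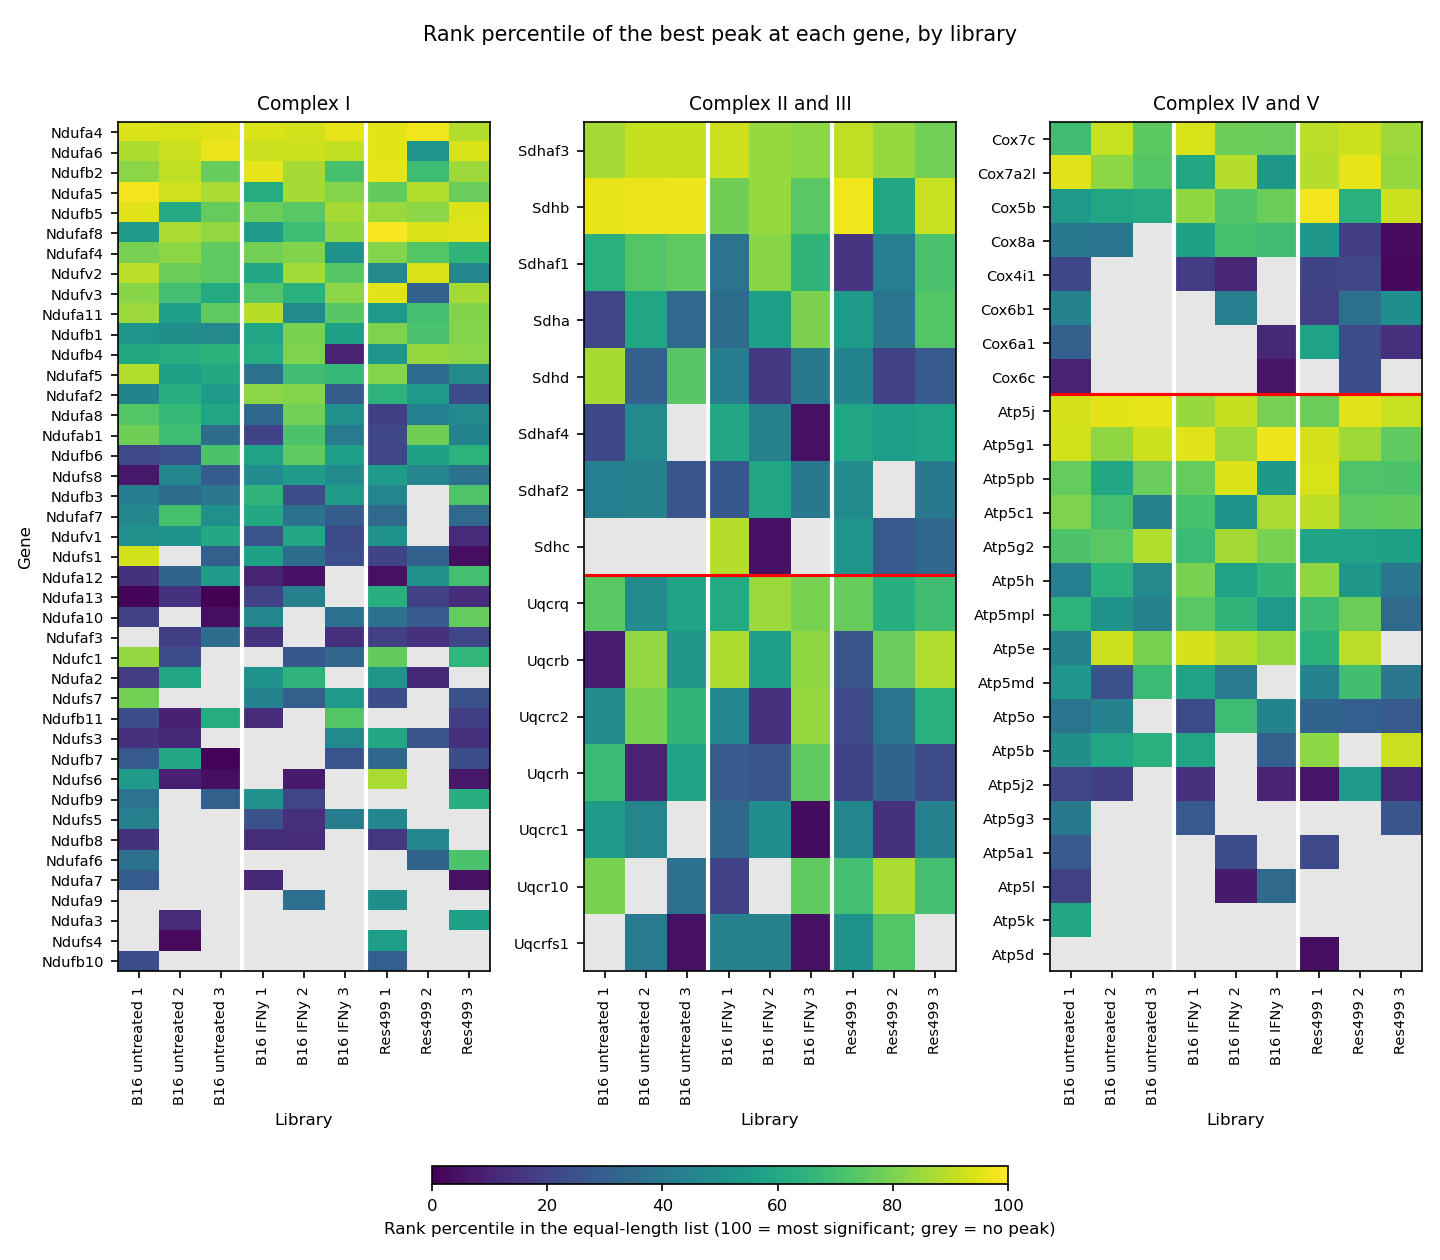
Rank percentile (colour, 100 = most significant, grey = no peak) of the best peak at each of the 82 genes called in some equal-length list, with genes in rows by complex and the 9 libraries in columns. Ndufa4 is bright across all 9 columns (88.4 to 97.9), Sdhc is grey in the 3 untreated columns, and grey cells of genes called in part fall in all 3 groups.

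The genes without a call were followed up in the full lists and at the RefSeq starts. The 11 genes with no peak at either end in any deposited list included Ndufb4b, Ndufb4c, Cox4i2, Cox5a, Cox6a2, Cox6b2, Cox7a2, Cox7b2, Cox8b and Cox8c. Of these, Cox5a and Cox7a2 did have a peak over the RefSeq start, which lies away from the annotated ends. For Cox7a2 this held in all 9 equal-length lists, at percentiles from 23.1 to 83.6 (mean 60.3), and for Cox5a in 3 untreated, 1 IFNy and 1 Res499 library. For the other genes named here the nearest peak of any list was between 1558 bp (Cox4i2) and 619315 bp (Cox7b2) away. The other 7 genes absent from the equal-length lists had a peak in some full list: besides Uqcr11, Cox7a1 and Ndufa4l2, Ndufc2 in 2 untreated, 1 IFNy and 1 Res499 library, Ndufa1 in 1, 1 and 0, and Ndufaf1 and Cox7b in 1 untreated library. When a peak over the start was required instead, 30 of 82 genes (36.6%) were called in all 9 equal-length lists and 10 (12.2%) in none, against 16.4% and 55.8% of 17492 coding genes. By complex, 16 of 42 (38.1%) were called in all 9 for complex I, 5 of 7 (71.4%) for II, 1 of 5 (20.0%) for III, 4 of 13 (30.8%) for IV and 4 of 15 (26.7%) for V. Complex IV was thus not the lowest by this measure, though it kept the most genes with no call (5 of 13). The measures cover different genes. Uqcrq, Uqcrb and Uqcrc2 of complex III, called in all 9 libraries by the first rule, have no RefSeq start here. Cox4i1, Cox4i2, Cox6a2, Cox6c and Cox8c of complex IV, none called in all 9, also have none. The order of the complexes over starts therefore depends in part on which genes have an entry.

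Chronic IFNy treatment before injection was set against no treatment. IFNy cells had 13 genes called in more libraries than in untreated cells and 13 in fewer, beside 8.41% and 7.19% of coding genes. Only genes called in part of the libraries can differ, and these were 45 of the 100 but 24.1% of coding genes. Of the 5266 coding genes called in part, 1840 were called in more libraries and 1574 in fewer. By complex, 5 genes of complex I were called in more and 10 in fewer, 2 against 0 in each of complexes II, III and IV, and 2 against 3 in complex V. None of the 100 was called in all 3 libraries of one group and none of the other, a pattern shown by 0.174% of coding genes for IFNy and 0.123% for untreated cells. Among the 37 genes with a rank in all libraries, the median difference in percentile was -0.37 points, against 0.09 over all 4406 coding genes tested. limma called no gene at an adjusted p under 0.05 (0% of all genes), and at an unadjusted p under 0.05 it had 140 genes (3.18%), 1 of them in the set.

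That gene was Sdhb, 17.8 points lower after IFNy (difference -17.8, 95% interval -34.1 to -1.5, limma adjusted p = 0.998). The 5 lowest fitted differences were those of Sdhd (-30.5), Sdhb, Cox7a2l (-16.6), Ndufab1 (-16.6) and Uqcrc2 (-16.2). The 5 highest were those of Uqcrb (27.5), Ndufb6 (23.8), Ndufs8 (22.9), Cox5b (19.8) and Sdha (19.2). IFNy libraries all ranked above the untreated ones for Cox5b, Ndufb1 and Ndufs8, 3 of 37 against 5.27% of all genes. They all ranked below for Sdhb, Ndufa5 and Atp5j, 3 of 37 against 4.49%. None passed the test. The median half-width of the 95% intervals was 29.9 points.

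Res499 was set against untreated B16, which serves as control in both comparisons. Res499 had 19 genes called in more libraries and 12 in fewer, beside 9.11% and 7.75% of coding genes. Only the 45 genes of the set called in part could differ. Of the 5266 coding genes called in part, 1993 were called in more libraries and 1697 in fewer. By complex the counts of the set were 8 and 7 for I, 2 and 1 for II, 2 and 0 for III, 4 and 0 for IV and 3 and 4 for V. Sdhc was the 1 gene of 100 present in all Res499 and no untreated libraries, a pattern of 0.343% of coding genes, and none showed the reverse (0.292%). Counted over all pairs of groups and in both directions, such genes numbered 1 with windows of 500 bp or 2 kb and with summits. They numbered 0 with order by fold enrichment and 3 with lists of 4607 peaks. With all deposited peaks Sdhc did not show the pattern, and over RefSeq starts it could not be scored. Different genes showed the reverse under these last rules. With all deposited peaks the reverse was seen for Uqcr11 (1 of 100, against 1.07% of coding genes), and with a peak over the start for Ndufa11 (1 of 82, against 0.497%). With a peak over the start in all deposited lists these were Ndufa11, Ndufs7 and Uqcr11 (3 of 82, against 1.57%). Full lists differ in length, from 15045 to 25374 peaks untreated and from 9221 to 15396 in Res499. The median rank difference was -0.64 points, against -0.35 over all genes. limma again called 0 genes (0% of all), and at an unadjusted p under 0.05 there were 236 (5.36%), of which 0 were respiratory chain genes.

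The lowest differences for Res499 were those of Sdhd (-32.7), Ndufa8 (-30.0), Sdhaf1 (-27.5), Uqcrc2 (-23.0) and Atp5g2 (-20.8). The highest were those of Ndufb1 (28.1), Cox5b (26.6), Ndufaf8 (21.0), Ndufs8 (18.8) and Sdha (17.3). Ndufb1, a small membrane subunit of complex I, was at 52.4, 49.5 and 46.9 untreated, 59.1, 79.9 and 56.8 after IFNy and 80.5, 71.1 and 81.6 in Res499. All 6 treated or resistant libraries lay above the untreated ones, and the limma interval for Res499 was -0.8 to 57.1 (adjusted p = 0.841). Ranks in Res499 were all above untreated for Cox5b, Ndufaf8 and Ndufb1, against 5.56% of all genes, and all below for Ndufa8 and Atp5g2, against 5.42%.

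Res499 was also set against IFNy-treated B16. It had 19 genes called in more libraries and 11 in fewer, beside 8.55% and 8.50% of coding genes. Again only the 45 genes of the set called in part could differ. Of the 5266 coding genes called in part, 1871 were called in more libraries and 1860 in fewer. No gene of the set was present in all libraries of one group and none of the other (0.183% of coding genes for Res499 and 0.224% for IFNy). The median rank difference was -2.11 points against -0.26 over all genes, and it changed sign, to 1.75, with Res499 replicate 2 left out and lists of 11181 peaks. limma called 0 genes (0% of all), with 249 (5.65%) at an unadjusted p under 0.05, of which 2 belonged to the set.

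Those 2 were Ndufaf8 and Cox7a2l. Ndufaf8, an assembly factor of complex I, was at 54.7, 87.4 and 83.7 untreated, 54.0, 68.8 and 83.4 after IFNy and 99.1, 94.4 and 95.4 in Res499, the 3 highest of the 9. The difference from IFNy was 27.6 points (95% interval 5.1 to 50.1, limma adjusted p = 0.834). Both groups hold the same mix of fragment classes, so a class term cannot change this difference and is no check on it. The end of Ndufaf8 adjoins that of Tepsin. Cox7a2l differed by 22.3 points (interval 0.3 to 44.4, limma adjusted p = 0.859), and Ndufb4 (22.5), Ndufb1 (12.5) and Atp5c1 (10.8) complete the highest 5. The lowest were Atp5g2 (-20.5), Sdhaf1 (-18.7), Uqcrh (-18.2), Ndufa8 (-18.1) and Ndufaf2 (-16.9). Ranks did not overlap for Ndufaf8 (better in Res499, 5.13% of all genes) and Atp5g2 (worse, 5.33%).

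Taking IFNy and Res499 together against untreated B16, the median difference was -0.43 points against -0.50 over all genes. limma called 0 genes (0% of all), with 174 (3.95%) at an unadjusted p under 0.05, among them Sdhd (-31.6, interval -61.6 to -1.6) and Sdhb (-15.9, interval -30.0 to -1.8), both at a limma adjusted p of 0.971. The next lowest were Ndufa8 (-20.9), Uqcrc2 (-19.6) and Sdhaf1 (-18.2), and the highest were Cox5b (23.2), Ndufb1 (21.9), Uqcrb (21.5), Ndufs8 (20.9) and Sdha (18.2). All 6 libraries lay above the untreated ones for Cox5b and Ndufb1, 2 of 37 against 1.23% of all genes, and below them for no gene (1.27%). With fragment class as a term, Sdhd differed by -25.3 (interval -56.5 to 5.8), Sdhb by -15.3 (-30.7 to 0.0) and Cox5b by 24.3 points (-1.0 to 49.6), and no interval excluded 0. The median SD of a gene within a group was 15.1 points for these 37 genes and 15.7 for all.

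**Figure D5:**
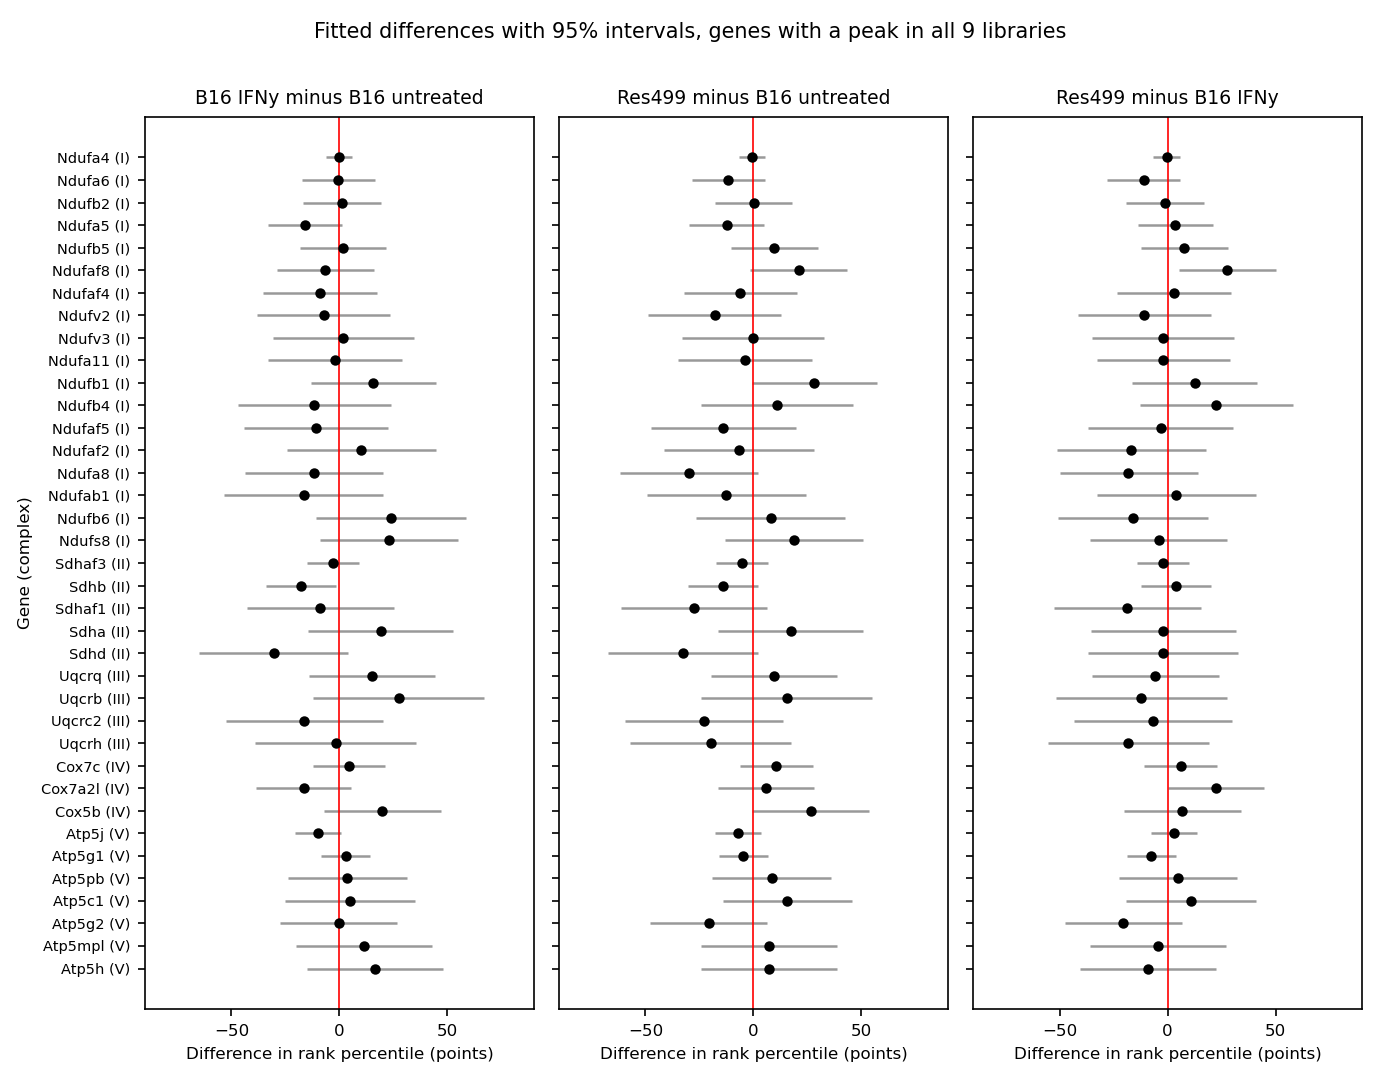
Fitted difference in rank percentile (points) with its 95% limma interval for the 37 genes with a peak in all 9 libraries, ordered by complex, in 3 comparisons. Points lie on both sides of 0 in each panel, and all intervals cross 0 except those of Sdhb (IFNy minus untreated) and of Ndufaf8 and Cox7a2l (Res499 minus IFNy).

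Genes around the chain were counted in the same way. Of 12 carriers and other subunits, 6 had a peak in all 9 equal-length lists: Cycs (cytochrome c), Etfa, Etfb, Etfdh, Coq6 and Coq7. Cycs and Etfdh stood near the top, with mean percentiles of 96.4 and 99.2, and 5 others were called in some libraries. Coq2, an enzyme of ubiquinone synthesis, was called in 0 untreated, 2 IFNy and 3 Res499 libraries, and in all 9 full lists. Of 33 other assembly factors, 16 were called in all libraries, 13 in some and 4 in none. Of 12 regulators, Nrf1, Gabpa, Esrra, Pprc1, Yy1, Tfb1m and Tfb2m were called in all 9, and Tfam, Ppargc1b and Polrmt in some. Ppargc1a, a coactivator of mitochondrial genes, was called in no equal-length list and in 3 untreated, 2 IFNy and 0 Res499 full lists. Full lists are shorter in Res499, and 1.07% of coding genes were called in every untreated and no Res499 full list. Gabpb1 had no peak at its ends in any list.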

How the data were processed

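Peak lists of 9 ATAC-seq libraries were analysed. The submitters' processing notes name GRCm38 (mm10) and the tools Bowtie2 2.2.4, MACS2, CASAVA and cutadapt 1.9; the MACS2 version and settings and any shift of reads are not given in the sources used here. Each deposited list was called on 1 library and gives per peak a score, a fold enrichment (a ratio), the −log10 p, the −log10 q and the summit. These deposited values were used to rank and describe peaks within a list. Every list ends near a −log10 q of 2, so weaker sites are absent.

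Peaks were ordered by −log10 p, lists were cut to 9214, and limma 3.58.1 (trend, two-sided, Benjamini-Hochberg adjustment over all genes tested) was fitted to the percentiles of genes ranked in all 9 libraries. With 3 against 3 libraries an exact test cannot go below p = 0.1, so presence is given without a p. The members, gene lists and tests were chosen with earlier results of these data known. Genes named are the core subunits, the 5 highest and lowest differences and mean ranks, and every member not called in all libraries, of which 1 is not reported here. RefSeq gene ends carry no strand or exons, and no genome sequence was used here. Alternatives were lists of 4607 peaks, windows of 500 bp and 2 kb, summits, order by fold, normal scores, fragment class, a replicate block, each library left out, no assembly factors and all peaks, and, added after seeing the data, peaks over starts or gene bodies and longer lists without Res499 replicate 2.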

Additional observations from a re-analysis of the deposited data

How the results depend on the processing

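In all 20 alternatives of each of the 4 limma comparisons, 0 respiratory chain genes were called, and the smallest adjusted p was 0.455. Leaving out the assembly factors reused the main fit, so its 0 followed from that fit and adds no check. Genes with a peak in all 9 libraries (37) numbered 16 with lists of 4607 peaks. Genes with none (18) numbered 31 with these shorter lists, 11 with all deposited peaks, 10 over RefSeq starts, 4 over starts with all peaks and 8 with peaks in gene bodies. The 1 gene present in all libraries of one group and none of another became 3 with the shorter lists, 0 with order by fold enrichment, 0 with longer lists without Res499 replicate 2, and 3 over starts with all peaks; leaving out 1 library gave 1 to 6 (6 without untreated replicate 1, 5 without IFNy replicate 3, 3 without IFNy replicate 2 or Res499 replicate 1, 2 without IFNy replicate 1 or Res499 replicate 3). The 13 cases of ranks without overlap became 33 with the longer lists, and 18 to 26 when 1 library was left out (24 and 23 without untreated replicates 1 and 2, 21 without IFNy replicate 2 or 3, 23 and 26 without Res499 replicates 1 and 2). Fewer libraries make both patterns easier to reach. The longer lists also ranked 51 rather than 37 genes of the set in every library used, so 33 and 13 are not like counts. Apart from the shares given above, the shares of all coding genes were not computed for these alternatives. The counts therefore have no background beside them and show no excess in the set. The median rank difference moved with the shorter lists, to -5.34 for Res499 against untreated, -5.07 for both groups against untreated and 6.53 for Res499 against IFNy, and with longer lists to 1.75 for the last; the cause was not tested. Every group holds each replicate number, so a replicate block cannot change the median differences. They stayed at -0.37 for IFNy and -0.64 for Res499 against untreated, -2.11 for Res499 against IFNy and -0.43 for both against untreated. The block can change only the spread, and 0 genes were called with it. After each gene's group mean was subtracted, the percentiles of same-numbered libraries correlated at -0.022 to 0.058. The numbers were therefore not taken to pair the libraries. Depth was recovered only in relative terms, so a missing peak does not show closed chromatin.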
